A study of Homo sapiens with 13 samples.

Results

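C6orf226, ALG9, CHAF1A and SYNGR2 are 4 genes that were followed across 13 RNA sequencing libraries of HuT78, a human T cell line that models Sézary syndrome, a skin lymphoma whose T cells circulate in blood. They were chosen by their small p-values for F5446 against DMSO in these same libraries, and the question put to them was whether chaetocin or romidepsin shifted them alike. The count table held 45744 genes, of which 17252, with all 4 among them, had enough counts to be tested. Cells were exposed for 72 h to chaetocin at 10 nM (4 libraries), to F5446 at 10 nM (3 libraries, numbered 2 to 4), to romidepsin at 1 µM (4 libraries) or to DMSO as vehicle (2 libraries, numbered 1 and 4). Every group was the same line with no genetic change stated, so the values describe 1 line, and the labels do not say whether replicates were separate cultures. The p-values therefore measure only the spread between these libraries, which may be technical.

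Chaetocin is a fungal metabolite that inhibits histone H3K9 methyltransferases of the SUV39H1 type, F5446 is a code-named SUV39H1 inhibitor, and romidepsin, a drug against T cell lymphomas, blocks histone deacetylases. The 4 genes act in separate places. ALG9 is a mannosyltransferase of the endoplasmic reticulum that adds mannoses to the lipid-linked oligosaccharide, the sugar precursor that oligosaccharyltransferase moves onto asparagines of new proteins. CHAF1A is the large subunit of chromatin assembly factor 1 (CAF-1), which is held at the replication fork by PCNA and places new histones H3 and H4 on replicated DNA. It also binds HP1, the protein that reads H3K9 methylation. SYNGR2 is the broadly expressed member of the synaptogyrins, membrane-spanning proteins of small vesicles. C6orf226 is listed in RefSeq as PEX39, a factor that works with PEX7 in bringing proteins with a PTS2 signal into peroxisomes.

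The promoters are shown because the 4 genes were chosen together and a reader may want to compare the letters at their starts. They are the 250 bases before the outermost start of each gene in RefSeq (GRCh38.p14, 5′ to 3′ on the gene's strand). ALG9 has 3 starts there, SYNGR2 2 and the other genes 1 each, and only the outermost was searched. The shares given below are over all 35116 promoters of 27305 genes. All 4 genes were matched by symbol or synonym, and the files themselves, counted on hg19, give no positions. Capitals mark matches on either strand to 5 motifs: the E2F-type motif TTCCCGCC, the CCAAT box CCAAT, the E-box CACGTG, the ETS-type motif CGGAAG and the GC box GGGCGG. No capitals means that none of these letters occurs in that window.
C6orf226, chr6:42890822-42891071, minus strand: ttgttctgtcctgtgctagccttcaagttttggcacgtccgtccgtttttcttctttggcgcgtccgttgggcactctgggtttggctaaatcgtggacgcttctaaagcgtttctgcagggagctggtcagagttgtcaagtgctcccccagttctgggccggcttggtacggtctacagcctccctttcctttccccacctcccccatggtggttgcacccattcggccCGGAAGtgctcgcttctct
ALG9, chr11:111871582-111871831, minus strand: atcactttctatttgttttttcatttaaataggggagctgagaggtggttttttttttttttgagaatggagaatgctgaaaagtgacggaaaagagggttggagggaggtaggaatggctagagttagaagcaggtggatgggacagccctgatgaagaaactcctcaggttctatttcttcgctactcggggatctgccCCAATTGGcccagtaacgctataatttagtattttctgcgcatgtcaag
CHAF1A, chr19:4402390-4402639, plus strand: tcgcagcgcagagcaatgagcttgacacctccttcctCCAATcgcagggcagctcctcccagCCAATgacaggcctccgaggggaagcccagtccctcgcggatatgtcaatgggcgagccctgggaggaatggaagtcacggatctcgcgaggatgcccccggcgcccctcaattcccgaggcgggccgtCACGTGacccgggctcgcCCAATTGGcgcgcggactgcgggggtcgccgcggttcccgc
SYNGR2, chr17:78168295-78168544, plus strand: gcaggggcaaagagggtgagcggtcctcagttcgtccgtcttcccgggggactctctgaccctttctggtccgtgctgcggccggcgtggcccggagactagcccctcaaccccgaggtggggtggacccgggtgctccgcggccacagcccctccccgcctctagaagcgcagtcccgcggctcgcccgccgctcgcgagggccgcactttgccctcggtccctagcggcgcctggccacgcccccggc
The C6orf226 window held 1 ETS-type match, 19 bases before the start, a motif found in 16.5% of the 35116 RefSeq promoters of this length. The ALG9 window held CCAAT on its own strand, 49 bases before the start, and on the other strand at 46, the pair overlapping in one palindrome. The CHAF1A window held CCAAT at 213, 188 and 41 bases, an overlapping match on the other strand at 38, and the E-box at 59 bases before the start. CCAAT occurred in 32.0% of all promoters and the E-box in 6.34%. No motif was shared by all 4 windows. The SYNGR2 window matched none of the 5, the E2F-type motif (2.72% of all promoters) and the GC box (42.6%) matched in none of the 4, and these matches are descriptions of letters, not of binding.

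Library totals lay between 19901052 and 30816188 counts. Chaetocin replicate 3 stood apart with a TMM factor of 0.859, where the other 12 libraries had 0.989 to 1.04, and with 15.9% of its counts on mitochondrially encoded genes. That share was 8.75 to 12.7% in libraries numbered 1 and 2 and 5.22 to 8.9% in the others numbered 3 and 4. With chaetocin replicate 3 set aside, it was thus mostly lower in numbers 3 and 4, though the ranges overlapped. A link of replicate number with RNA composition was not tested. Of 14 T cell and Sézary markers 13 averaged at least 1 CPM, with CD3E at 176 to 267 CPM, CD4 at 134 to 269 and GATA3, a transcription factor of T helper cells, at 520 to 1690. PLS3 reached at most 0.908 CPM. The summed marker level was 1670 to 3230 CPM with chaetocin, 1920 to 2390 with F5446, 1650 to 2360 with romidepsin and 1790 to 1960 with DMSO. Of 13 measured markers of other cell types 6 averaged at least 1 CPM, among them KRT8 at 48.3 to 80.5 CPM, CD79A at 26.3 to 78.0 and MS4A1 at 7.72 to 33.3, while CD14 and LYZ stayed at or below 0.338 CPM and HBB was at 0. Their sum was 157 to 208 CPM with chaetocin, 166 to 202 with F5446, 198 to 235 with romidepsin and 171 to 176 with DMSO, and their part in the results was not tested.

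The rule that chose the 4 genes can be read from its own values, given here as a description. By p from edgeR's quasi-likelihood test C6orf226 ranked 1 of all tested genes (adjusted p = 0.88), ALG9 4, CHAF1A 5 and SYNGR2 10 (adjusted p = 1 for these 3). Among 12993 protein-coding genes their ranks were 1, 3, 4 and 5. The 6 genes with a smaller p than SYNGR2 that are not among the 4 averaged at most 0.905 CPM, and 5 of them had no count in either DMSO library. Just outside came CGB2, a chorionic gonadotropin subunit gene that ranked 11, with 0.303, 0.517 and 0.792 CPM in F5446 replicates 2 to 4, against 0 in both DMSO libraries. COASY, a coenzyme A synthesis enzyme, ranked 12 with 52.9, 53.8 and 52.4 CPM in F5446 replicates 2 to 4, against 34.5 and 39.6 CPM in DMSO replicates 1 and 4. The adjusted p of no member passed 0.05 in edgeR, where 0% of the tested genes did, with 428 at an unadjusted p under 0.05. DESeq2 passed 1 gene, which was C6orf226 (0.0058% of the tested genes), and limma-voom passed 0.

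C6orf226, the peroxisomal import factor, had its lowest group mean with DMSO and its highest with F5446. Values are CPM, counts scaled to the TMM-normalized library size. Chaetocin replicates 1 to 4 had 3.96, 4.32, 6.33 and 5.17 CPM. F5446 replicates 2 to 4 had 6.73, 7.01 and 7.08 CPM, and romidepsin replicates 1 to 4 had 3.58, 4.65, 7.62 and 2.74 CPM, against 1.63 and 1.40 CPM in DMSO replicates 1 and 4. Each of the 11 treated libraries was above both DMSO libraries, the F5446 libraries lay close together, and the romidepsin libraries were spread 2.78-fold from lowest to highest, with replicate 3 above every F5446 library. The raw counts behind these values were small, 59 to 235 in treated libraries and 34 and 29 with DMSO, so counting error is part of the spread. In these bulk libraries, fewer cells with the transcript and less RNA per cell cannot be told apart.

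The C6orf226 means were 6.94 ± 0.182 CPM with F5446 (SD, n = 3), 4.94 ± 1.05 with chaetocin (n = 4), 4.65 ± 2.13 with romidepsin (n = 4) and 1.51 ± 0.161 with DMSO (n = 2). The fitted difference from DMSO was 2.19 on the log2 scale for F5446, or 4.57-fold, which is the value that chose the gene. With chaetocin it was 1.70 (95% CI 0.84 to 2.56, 3.25-fold) and with romidepsin 1.62 (0.76 to 2.48, 3.07-fold). Both of these intervals use the same 2 DMSO libraries that entered the rule, so neither is independent support. Down the order of means, all chaetocin libraries lay below all F5446 libraries, chaetocin and romidepsin libraries overlapped, and no romidepsin library reached down to DMSO. The share of all tested genes that separate chaetocin from F5446 was not counted. Choosing on F5446 favours such a separation, so nothing is read from it.

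ALG9, the mannosyltransferase, had its lowest group mean with F5446 and its highest with DMSO. Chaetocin replicates 1 to 4 had 4.57, 7.70, 5.68 and 3.03 CPM. F5446 replicates 2 to 4 had 4.51, 3.88 and 4.90 CPM, and romidepsin replicates 1 to 4 had 6.36, 5.95, 6.22 and 7.70 CPM, against 9.87 and 9.81 CPM in DMSO replicates 1 and 4. All 11 treated libraries were below both DMSO libraries. Chaetocin was the most uneven group, spread 2.54-fold, with its replicate 4 below every other library and its replicate 2 level with the highest romidepsin library.

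Group means of ALG9, from the lowest, were 4.43 ± 0.516 CPM with F5446 (n = 3), 5.24 ± 1.96 with chaetocin (n = 4), 6.56 ± 0.782 with romidepsin (n = 4) and 9.84 ± 0.0440 with DMSO (n = 2, SD). The log2 difference from DMSO was -1.15 for F5446, a ratio of 0.45, again the value that chose the gene. It was -0.90 for chaetocin (95% CI -1.55 to -0.26) and -0.58 for romidepsin, whose interval of -1.24 to 0.07 reached above 0. The chaetocin libraries overlapped those of F5446 and of romidepsin, while all romidepsin libraries lay above all F5446 libraries. How many of all tested genes separate romidepsin from F5446 was not counted. The choice of ALG9 by its F5446 values favours this separation, so it is a description only. Raw counts of ALG9 ran from 78 to 246. In GENCODE v29, 24.4% of its exonic bases (1954 of 8013) are shared with a readthrough gene on the same strand, AP001781.2, which held 0 to 9 counts per library. How the counting treated reads in shared bases is not given in the sources used here. The intronic transcript ALG9-IT1 held 0 to 8 counts.

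CHAF1A, the CAF-1 subunit, was lower than DMSO in all F5446 and all romidepsin libraries but not in all chaetocin libraries. Chaetocin replicates 1 to 4 had 147, 124, 189 and 126 CPM. F5446 replicates 2 to 4 had 118, 121 and 131 CPM, and romidepsin replicates 1 to 4 had 151, 135, 111 and 158 CPM, against 169 and 206 CPM in DMSO replicates 1 and 4. The library that overlapped was chaetocin replicate 3, which stands apart in composition as given above. In CPM, chaetocin replicate 1 and romidepsin replicates 1, 2 and 4 lay nearer to DMSO replicate 1 than the 2 DMSO libraries lay to each other.

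From the lowest, the CHAF1A means were 123 ± 6.90 CPM with F5446 (n = 3), 139 ± 20.8 with romidepsin (n = 4), 146 ± 30.2 with chaetocin (n = 4) and 188 ± 26.3 with DMSO (n = 2, SD). The log2 difference from DMSO, -0.61 for F5446, chose the gene. For chaetocin it was -0.36 (95% CI -0.71 to -0.01) and for romidepsin -0.44 (-0.79 to -0.09). Without chaetocin replicate 3 the chaetocin difference was -0.50. It was -0.21 without DMSO replicate 4 and -0.49 without DMSO replicate 1, so its size rests on which vehicle library is used. The romidepsin difference was -0.29 without DMSO replicate 4 and -0.57 without DMSO replicate 1. Each neighbouring pair of groups in this order overlapped. Raw counts lay between 2651 and 4272, so counting error is small here beside the spread between libraries. CHAF1A shares 20 exonic bases with UBXN6 on the opposite strand and 81 with AC011498.3, which are 0.465% and 1.88% of its exonic bases.

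SYNGR2, the vesicle protein, was higher than DMSO in all F5446 and all chaetocin libraries. Chaetocin replicates 1 to 4 had 149, 168, 167 and 164 CPM. F5446 replicates 2 to 4 had 167, 185 and 159 CPM, and romidepsin replicates 1 to 4 had 140, 118, 164 and 176 CPM, against 114 and 124 CPM in DMSO replicates 1 and 4. Romidepsin replicate 2 lay inside the DMSO range, and the other 3 romidepsin libraries lay above it.

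SYNGR2 means were 170 ± 13.6 CPM with F5446 (n = 3), 162 ± 8.99 with chaetocin (n = 4), 149 ± 26.1 with romidepsin (n = 4) and 119 ± 7.20 with DMSO (n = 2, SD). The log2 difference from DMSO was 0.52 for F5446, which chose the gene, 0.44 for chaetocin (95% CI 0.13 to 0.76) and 0.33 for romidepsin (0.01 to 0.65). In fold terms these were 1.43, 1.36 and 1.26. F5446 and chaetocin libraries overlapped, as did chaetocin and romidepsin libraries. The gene had 2351 to 5373 raw counts per library, and its exons overlap no other gene in GENCODE v29, which holds for C6orf226 as well.

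**Figure D1:**
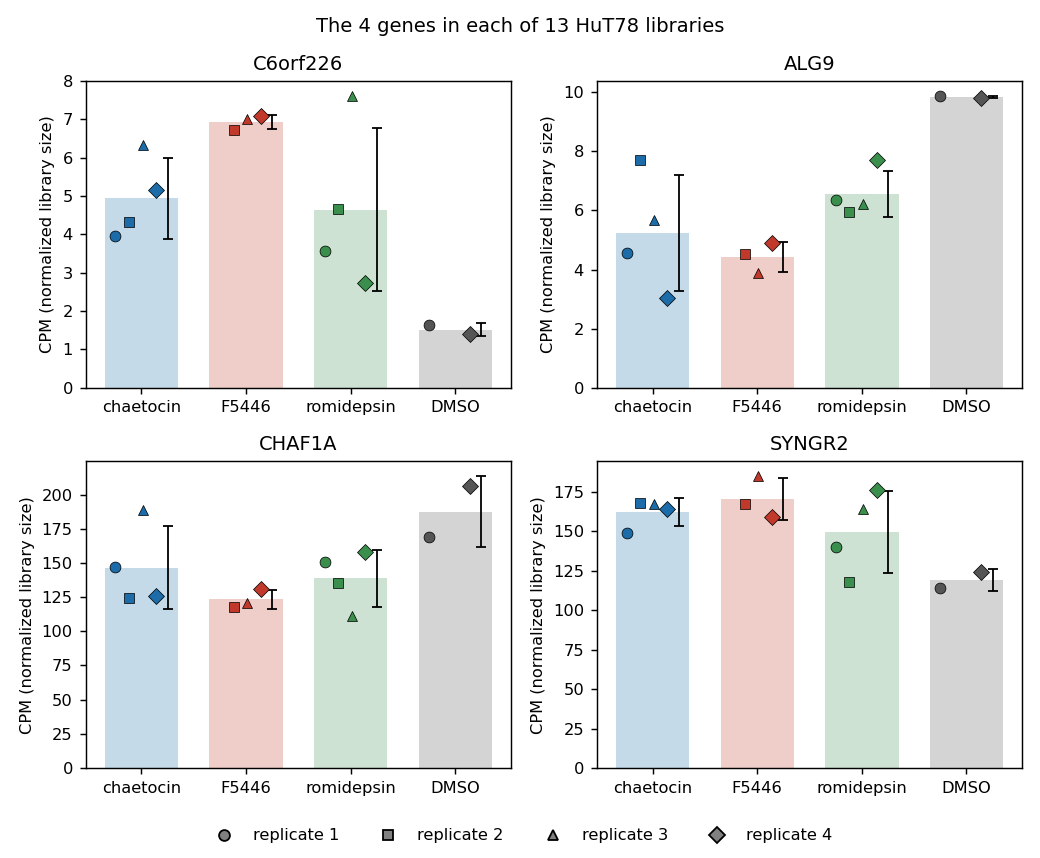
CPM of C6orf226, ALG9, CHAF1A and SYNGR2 in each library (points, shaped by replicate number), with group means (bars) and SD (error bars) for chaetocin (n = 4), F5446 (n = 3), romidepsin (n = 4) and DMSO (n = 2). C6orf226 lay at 2.74 CPM or above in every treated library, against 1.63 and 1.40 CPM with DMSO, and ALG9 at 7.70 CPM or below, against 9.87 and 9.81 CPM.

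Counted over the 4 genes, 2 (C6orf226 and SYNGR2) were higher in every F5446 library than in both DMSO libraries, as were 9.44% of all tested genes, and 2 (ALG9 and CHAF1A) were lower, as were 9.12%. The rule used this contrast, so nothing is read from these counts. With chaetocin 2 of the 4 (C6orf226 and SYNGR2) were higher in every library, against 5.22% of all tested genes, and 1 (ALG9) was lower, against 6.09%. With romidepsin 1 (C6orf226) was higher, against 5.34%, and 2 (ALG9 and CHAF1A) were lower, against 4.98%. The 3 comparisons share the DMSO libraries, so a DMSO library that is low or high for a gene moves all 3 alike, and the counts are not independent of how the genes were chosen. Across all tested genes the median difference from DMSO was 0.01 on the log2 scale for chaetocin, F5446 and romidepsin alike. No gene passed an adjusted p of 0.05 by edgeR in chaetocin against DMSO (0%, with 703 at an unadjusted p under 0.05, 10 by DESeq2 and 1 by limma-voom). None passed in romidepsin against DMSO (0%, with 487 at an unadjusted p under 0.05, 1, CKB, by DESeq2 and 0 by limma-voom). CKB is named after its values were seen, and none of the 4 genes was among these calls.

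The comparison of romidepsin with chaetocin sets side by side 2 groups outside the contrast that chose the genes, and was tested for each of the 4. The spread behind its tests and intervals is estimated from all 13 libraries, those with F5446 and DMSO included. The p that ranked the genes rests on the same spread. The choice can therefore favour genes with low spread in these 2 groups, which are not wholly independent of it. The comparison sets 1 µM romidepsin beside 10 nM chaetocin, so the doses differ. None of the 4 passed edgeR's quasi-likelihood test (adjusted p = 1 for each over all tested genes, in which 16 genes, or 0.0927%, passed), and in none were the groups free of overlap, against 2.24% of genes higher and 1.36% lower in every romidepsin library. By DESeq2 62 genes passed and by limma-voom 13, with 939 at an unadjusted p under 0.05 by edgeR, and again none of the 4 was among the calls. For C6orf226 the log2 difference was -0.08 (95% CI -0.71 to 0.55), with 4.65 CPM for romidepsin and 4.94 CPM for chaetocin. ALG9 gave 0.32 (-0.23 to 0.87), with 6.56 CPM for romidepsin and 5.24 CPM for chaetocin. The C6orf226 interval still holds differences larger than 0.5 on the log2 scale in either direction and the ALG9 interval in one, so they do not show that the compounds act alike on them. CHAF1A gave -0.08 (-0.37 to 0.21), and SYNGR2 -0.11 (-0.37 to 0.14). Those intervals are narrower, and both end at -0.37 on the lower side. Fitted on the 8 romidepsin and chaetocin libraries alone, the differences were -0.09 (-0.80 to 0.62) for C6orf226, 0.32 (-0.30 to 0.93) for ALG9, -0.08 (-0.42 to 0.25) for CHAF1A and -0.12 (-0.39 to 0.15) for SYNGR2, with edgeR adjusted p of 0.998 to 0.999.

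Single libraries set the sign of some of these small differences. Without chaetocin replicate 3, the library that stands apart, the difference between romidepsin and chaetocin was 0.05 for C6orf226, 0.35 for ALG9, 0.06 for CHAF1A and -0.11 for SYNGR2. Without romidepsin replicate 3 it was -0.43 for C6orf226, and for ALG9 it was 0.57 without chaetocin replicate 2 and 0.13 without chaetocin replicate 4. For SYNGR2 it was -0.02 without romidepsin replicate 2. Among libraries numbered 1 and 2 the ALG9 difference was 0.01, and among those numbered 3 and 4 it was 0.67. SYNGR2 gave -0.29 among numbers 1 and 2 and 0.03 among numbers 3 and 4, CHAF1A 0.08 and -0.24, and C6orf226 -0.00 and -0.15 in the same order of sets.

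Dose and time were the same for chaetocin and F5446, and both are described as acting on SUV39H1-type enzymes. The F5446 libraries entered the rule, so these differences are descriptions without a test. C6orf226 was lower with chaetocin than with F5446 by a log2 difference of -0.49 (95% CI -1.16 to 0.18). ALG9 was at 0.25 (-0.35 to 0.84) and CHAF1A at 0.25 (-0.07 to 0.56), and SYNGR2 at -0.07 (-0.35 to 0.20). For all 4 genes the F5446 mean was farther from the DMSO mean than the chaetocin mean was, which is the direction that choosing on F5446 favours. The CHAF1A value was 0.11 without chaetocin replicate 3, and the ALG9 value was -0.002 without chaetocin replicate 2, 0.44 without chaetocin replicate 4 and 0.16 without F5446 replicate 3. SYNGR2 gave -0.03 without chaetocin replicate 1, -0.01 without F5446 replicate 3 and -0.12 without F5446 replicate 4. Romidepsin against F5446, at different doses, gave -0.57 (-1.24 to 0.10) for C6orf226, 0.57 (-0.03 to 1.17) for ALG9, 0.17 (-0.15 to 0.48) for CHAF1A and -0.19 (-0.46 to 0.09) for SYNGR2. Without romidepsin replicate 3 the C6orf226 value was -0.92 and that of CHAF1A 0.26, without romidepsin replicate 4 that of CHAF1A was 0.11, and for SYNGR2 it was -0.09 without romidepsin replicate 2 and -0.12 without F5446 replicate 3.

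**Figure D2:**
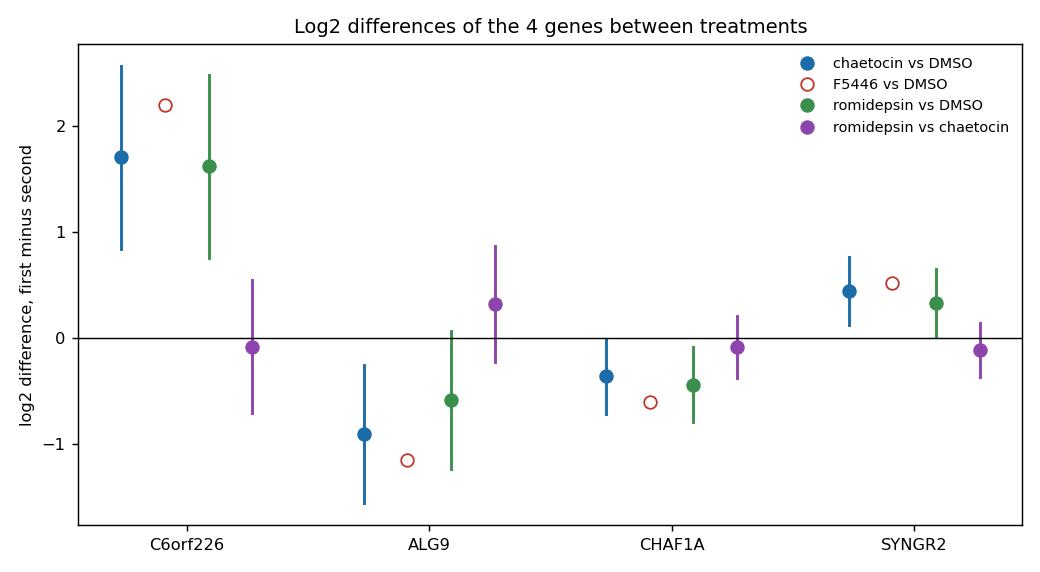
Fitted log2 differences of the 4 genes (first named group minus second), with 95% confidence intervals as lines; open points, for F5446 against DMSO, are the values that chose the genes and have no interval. C6orf226 lay at 1.70 with chaetocin, 2.19 with F5446 and 1.62 with romidepsin against DMSO, and all 4 intervals of romidepsin against chaetocin included 0.

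Within sets of replicate numbers, each of which holds a single DMSO library, the differences from DMSO kept their sign for all 4 genes and all 3 compounds. C6orf226 with chaetocin was 1.33 above DMSO on the log2 scale among numbers 1 and 2 and 2.03 among numbers 3 and 4. For F5446 the pair of values was 2.05 and 2.31, and for romidepsin 1.33 and 1.88. ALG9 with chaetocin gave -0.69 and -1.18, with F5446 -1.12 and -1.18, and with romidepsin -0.68 and -0.51. CHAF1A gave -0.33 and -0.40 with chaetocin, -0.51 and -0.72 with F5446, and -0.24 and -0.63 with romidepsin. For SYNGR2 the values were 0.47 and 0.41 with chaetocin, 0.56 and 0.46 with F5446, and 0.18 and 0.44 with romidepsin. Since the genes were chosen by small p for F5446 against DMSO, the shared sign of the F5446 values follows from the choice. In each set the chaetocin and romidepsin values use the same DMSO library as F5446. Their signs are therefore not independent of the choice either.

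Genes that work beside ALG9 were looked at next. Of 34 other genes of lipid-linked oligosaccharide assembly and transfer 32 were tested, and 0 passed an adjusted p of 0.05 by edgeR in any comparison with DMSO or between romidepsin and chaetocin, in any alternative run. With chaetocin 23 lay above DMSO and 9 below (median log2 difference 0.13, against 0.01 over all tested genes), with F5446 22 and 10 (0.10) and with romidepsin 19 and 13 (0.04). At an unadjusted p under 0.05 there were 1, 1 and 0. Without DMSO replicate 1 these medians were 0.36, 0.21 and 0.21, and without DMSO replicate 4 they were -0.02, -0.03 and -0.08, so they rest on which vehicle library is used. ALG3, the mannosyltransferase that acts just before ALG9, was at 126 to 136 CPM with chaetocin, 94.5 to 113 with F5446 and 87.9 to 131 with romidepsin, against 87.5 to 114 CPM with DMSO. Its log2 difference from DMSO was 0.38 with chaetocin (95% CI 0.05 to 0.72), 0.02 with F5446 and 0.11 with romidepsin. ALG12, whose mannose is added between the ALG9 steps, was at 0.08, 0.12 and 0.08 in the same order of compounds.

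In the same list DOLK, the kinase that makes dolichol phosphate, the lipid carrier, had the smallest p for F5446. It had 6.26 to 11.3 CPM with chaetocin, 4.11 to 7.04 with F5446 and 5.15 to 10.4 with romidepsin, against 6.33 and 13.9 CPM with DMSO, and the F5446 and DMSO libraries overlapped. Its log2 difference for F5446 was -0.93 (95% CI -1.69 to -0.17, edgeR adjusted p = 1), and for chaetocin -0.23 (-0.95 to 0.49). MAGT1 and DDOST, both parts of oligosaccharyltransferase, were at 0.31 (-0.11 to 0.73) and 0.21 (-0.09 to 0.51) with F5446.

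The partners of CHAF1A were treated in the same way. Of 23 other CAF-1 and histone H3-H4 chaperone genes, all tested, 0 passed by edgeR, also at an unadjusted p under 0.05, in any of these comparisons. With chaetocin 15 lay above DMSO and 8 below (median 0.05), with F5446 10 and 13 (-0.02) and with romidepsin 12 and 11 (0.00). With single libraries left out these medians ran from 0.02 to 0.08, from -0.07 to 0.07 and from -0.08 to 0.00. CHAF1B, the middle subunit of CAF-1, had 54.3 to 75.1 CPM with chaetocin, 48.8 to 60.2 with F5446 and 49.0 to 62.3 with romidepsin, against 53.6 to 63.7 CPM with DMSO. Its log2 differences from DMSO were 0.08 (-0.26 to 0.41), -0.09 (-0.44 to 0.27) and -0.07 (-0.41 to 0.26). RBBP4, the small subunit, which other chromatin complexes also hold, was at 0.08, 0.23 and 0.03. ASF1A, which hands histones to CAF-1, was at 0.31 (-0.03 to 0.66) with F5446, and ATRX, a remodeller of heterochromatin, at -0.21 (-0.50 to 0.08).

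The replication fork, where CAF-1 works, is represented by 34 tested genes, of which 0 passed by edgeR. With chaetocin 23 lay above DMSO and 11 below (median 0.05), with F5446 19 and 15 (0.03) and with romidepsin 18 and 16 (0.01), and each median had a negative value without DMSO replicate 4, down to -0.02. At an unadjusted p under 0.05 there were 1, 0 and 0. RFC2, a subunit of the clamp loader, had 161 to 189 CPM with chaetocin, 156 to 191 with F5446 and 152 to 184 with romidepsin, against 128 and 162 CPM with DMSO (log2 differences 0.28, 0.30 and 0.19). MCM2, a helicase subunit that also binds histones, was at 0.18, 0.27 and 0.13. POLD2, a subunit of DNA polymerase delta, was at -0.10, -0.23 and -0.28, with an edgeR adjusted p of 1 for each. All its F5446 and romidepsin libraries were below both DMSO libraries, as in 9.12% and 4.98% of all tested genes.

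Among the relatives of SYNGR2, 10 of 12 other synaptogyrin, synaptophysin and SCAMP genes were tested and 0 passed by edgeR. The medians were 0.10 with chaetocin (5 above DMSO, 5 below), 0.14 with F5446 (6 and 4) and 0.09 with romidepsin (8 and 2), with 1, 0 and 0 at an unadjusted p under 0.05. Without DMSO replicate 1 these medians were -0.13, -0.03 and -0.06, and without DMSO replicate 4 they were 0.12, 0.24 and 0.27, so their sign rests on the vehicle library. SCAMP3, a carrier membrane protein of the secretory pathway, had 66.1 to 84.1 CPM with chaetocin, 57.1 to 66.4 with F5446 and 52.7 to 69.3 with romidepsin, against 47.1 and 50.6 CPM with DMSO. Every treated library was above both DMSO libraries. Of all tested genes 5.22% were so with chaetocin, 9.44% with F5446 and 5.34% with romidepsin. The 3 comparisons share the DMSO libraries, and SCAMP3 was named for its small p for F5446. The SCAMP3 log2 difference was 0.56 with chaetocin (95% CI 0.23 to 0.89, edgeR adjusted p = 0.972), 0.30 with F5446 (-0.04 to 0.64) and 0.26 with romidepsin (-0.06 to 0.59). SCAMP1 was at -0.10, 0.22 and 0.08. The other synaptogyrins were barely measured: SYNGR1 reached at most 1.78 CPM and SYNGR3 1.63 CPM in any library, and SYP, the synaptophysin gene, 1.39 CPM, so their differences from DMSO have 95% intervals wider than 3 log2 units.

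A list of 20 peroxisome biogenesis and PTS2 cargo genes was added for C6orf226 after its values were seen. None passed by edgeR. With chaetocin 10 lay above DMSO and 10 below (median 0.01), with F5446 14 and 6 (0.08) and with romidepsin 10 and 10 (0.00), with 0, 0 and 1 at an unadjusted p under 0.05. PEX7, the PTS2 receptor, had 2.84 to 8.36 CPM with chaetocin, 5.54 to 8.08 with F5446 and 4.22 to 6.39 with romidepsin, against 4.69 and 4.79 CPM with DMSO. All F5446 libraries were above both DMSO libraries, as in 9.44% of all tested genes, at a log2 difference of 0.43 (-0.37 to 1.23). The chaetocin (0.16) and romidepsin (0.18) libraries overlapped DMSO. PEX5, the receptor for PTS1 cargo, was at 0.10, 0.33 and 0.16, and PEX19, which brings membrane proteins to peroxisomes, at 0.26, 0.26 and 0.19.

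**Figure D3:**
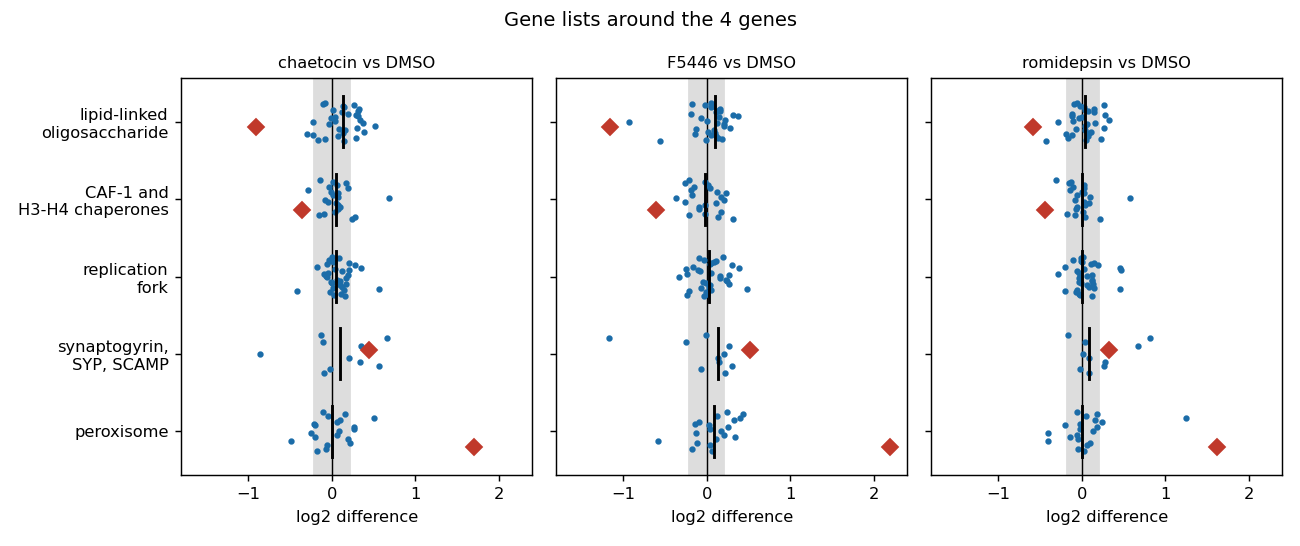
Log2 differences from DMSO of the genes in 5 lists (points), the list median without the 4 genes (black bars), the 4 genes themselves (red diamonds, each in its list) and the interquartile range of all tested genes (grey band) for chaetocin, F5446 and romidepsin. The list medians lay between -0.02 and 0.14; the red diamonds are genes chosen for their F5446 values, so their distance from the lists is no comparison.

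The nearest measured genes on each chromosome were set beside the 4, and no tested one passed an adjusted p of 0.05 against DMSO by edgeR. RPL7L1, beside C6orf226, had log2 differences from DMSO of 0.02 with chaetocin, -0.12 with F5446 (95% CI -0.48 to 0.24) and -0.04 with romidepsin. PTCRA, on its other side, had at most 0.111 CPM and was not tested. PPP2R1B, next to ALG9, gave -0.14, -0.01 (-0.42 to 0.40) and -0.02. FDXACB1, on the far side, gave 0.11, -0.10 and -0.08 at 1.35 to 6.04 CPM. SH3GL1, beside CHAF1A, lay on the other side of DMSO from it, at 0.29 (-0.04 to 0.62), 0.29 (-0.06 to 0.64) and 0.23 (-0.11 to 0.56). UBXN6, which overlaps CHAF1A, was at 0.31, 0.09 and 0.15. TK1, the thymidine kinase gene next to SYNGR2, was at 0.30 (-0.03 to 0.63), 0.27 (-0.07 to 0.62) and 0.29 (-0.04 to 0.62), in the direction of SYNGR2. C17orf99, its other neighbour, was at 0.08, -0.43 and 0.05 with at most 2.87 CPM.

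The genes whose log2 CPM ran most like each of the 4 over the 13 libraries were found among the 10095 or 10096 tested genes that averaged 5 CPM or more. The libraries share treatment, depth and replicate number, and the contrast of F5446 with DMSO among them chose the 4 genes. So r is a description. Each named gene was picked as highest among that many, and the level reached by unrelated genes was not tested. The r over the 8 chaetocin and romidepsin libraries uses part of the same 13, so it is no separate check. C6orf226 was nearest to CDCA4 (Pearson r = 0.92, Spearman rho = 0.87), ASNS, the asparagine synthetase gene (0.85 and 0.75), and TMEM230 (0.84 and 0.74). Over the 8 chaetocin and romidepsin libraries alone, r was 0.72, 0.78 and 0.62. ALG9 was nearest to DCBLD1 (r = 0.84), SPRED1 (0.81) and TUBGCP4 (0.80), with r of 0.80, 0.73 and 0.74 over the 8 libraries. CHAF1A had its nearest pattern in NUFIP2 (r = 0.93, rho = 0.93, and 0.95 over the 8 libraries), then GRIPAP1 (0.84) and ANP32A (0.82). SYNGR2 was nearest to COASY (r = 0.90, and 0.83 over the 8 libraries), GSK3A (0.89 and 0.91) and CTH (0.87 and 0.86). COASY also ranks just after CGB2 outside the rule, so its r with SYNGR2 over the 13 libraries is not independent of the contrast of F5446 with DMSO. The part of that contrast in this r was not tested. By Spearman rho 7 of these 12 genes were not among the nearest 3, COASY and CTH (rho = 0.87 and 0.83, against 0.90 for GSK3A) included, while all 12 were with RLE scaling.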

How the data were processed

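Total RNA of HuT78 cells was isolated on columns and treated with DNase, and the library kit was one made for fixed tissue, per the labels' protocols. Per the submitters' processing notes, bcl2fastq 2.20.0.422, cutadapt 1.8.1 and HTSeq 0.6.1 were used with hg19; aligner, strand, annotation release and overlap mode: not given in the sources used here. The authors deposited raw counts per gene. The treatment tags of the F5446 libraries end in different digits, and the titles, which all give F5446, were used.

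One edgeR 4.0.16 fit (R 4.3.3; TMM, filterByExpr, robust quasi-likelihood, two-sided) covered all 13 libraries by group, with Benjamini-Hochberg adjustment over all 17252 tested genes and a threshold of 0.05. Its 95% intervals cover spread between libraries and counting error. CPM use normalized library sizes (totals 19901052 to 30816188 counts), and log2 CPM for likeness a prior count of 2. Named genes are the 4 members, the next 2 protein-coding genes by p, the 3 members of each list with the smallest p for F5446 against DMSO, direct partners, nearest neighbours and the 3 most alike genes; some genes are not reported here. Members and lists were chosen with earlier results of these data known, and the peroxisome list after the members' values were seen. Neighbours and promoters came from RefSeq (GRCh38.p14), shared exons from GENCODE v29. Alternatives were DESeq2 1.42.0, limma-voom (limma 3.58.1), 3 other scalings, low-count filtering by none or by 5 CPM, non-robust estimation, fitting 2 groups alone, a replicate block, a set term (numbers 1 and 2 against 3 and 4), values within the sets, omission of mitochondrial genes and omission of single libraries; where 1 DMSO library is left, it is assumed to vary like the other groups. On simulated counts in which 200 genes were changed, the fit was checked. Figures were drawn with matplotlib 3.10.9.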

Additional observations from a re-analysis of the deposited data

Results flagged for a closer look

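Of 72 groups of 4 libraries looked at, 1 had a library far from the others, where chance flags about 1 group in 20. COASY, which ranks 12 by the p that chose the 4 genes and had the highest Pearson r with SYNGR2, had 41.4 CPM in chaetocin replicate 1, against 48.7 to 49.8 CPM in the other 3 chaetocin libraries. None of the 4 genes had such a library in the chaetocin or romidepsin group, and the cause was not tested.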

How the results depend on the processing

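Among alternative values of the 4 genes 631 moved by less than the spread between libraries, or, for romidepsin against chaetocin, kept direction and side of the threshold. ALG9 in chaetocin against F5446 is one of them but changed sign, to -0.002 without chaetocin replicate 2 and -0.0027 among numbers 3 and 4. The difference between romidepsin and chaetocin changed sign for C6orf226 without chaetocin replicate 3 (0.050), without romidepsin replicate 1 (0.025) or without romidepsin replicate 4 (0.098), within a range of -0.43 to 0.10 with each library left out. For CHAF1A it did so without chaetocin replicate 3 (0.060) or romidepsin replicate 3 (0.014), within -0.15 to 0.06, and among numbers 1 and 2 (0.085). ALG9 moved to 0.67 among numbers 3 and 4, and SYNGR2 to -0.29 among numbers 1 and 2 and, reversed, to 0.034 among numbers 3 and 4. Romidepsin against F5446 for SYNGR2 was -0.38 and -0.015 in these sets. Adjusted p for romidepsin against chaetocin over the alternatives was 0.936 to 1 for C6orf226, 0.758 to 1 for ALG9, 0.922 to 1 for CHAF1A and 0.798 to 1 for SYNGR2. C6orf226 has no value under the filter at 5 CPM, since its mean was 4.79 CPM. All 500 alternative list counts stayed at 0.

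Genes passing for chaetocin against DMSO numbered 10 by DESeq2, 1 by limma-voom, 9 with no filter, 1 with a non-robust fit and 7 with the term for sets of numbers, and 0 to 2 with each library left out (2, FAM84B and MT-RNR1, without DMSO replicate 4; 1, ATF5, without chaetocin replicate 4). For romidepsin against DMSO they numbered 1 by DESeq2, 5 with no filter and 1 with that term, and for F5446 against DMSO 1 by DESeq2. Romidepsin against chaetocin gave 62 by DESeq2, 72 with no filter, 7 with only these 2 groups, 108 with the term and 5 to 22 with each library left out, the 5 without romidepsin replicate 2. Chaetocin against F5446 gave 2 by DESeq2, 9 with no filter and 5 with the term, and romidepsin against F5446 6 with no filter and 2 with only these 2 groups. C6orf226 by DESeq2 for F5446 was the only call of any of the 4 genes under these settings. The cause of these shifts was not tested.

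Replicate numbers were not taken as pairs in the main fit, though the libraries varied partly by number. Deviations of same-numbered romidepsin and chaetocin libraries correlated at 0.222, 0.068, 0.108 and 0.075 for numbers 1 to 4. Differently numbered libraries correlated at -0.192 to 0.111. For romidepsin replicates 1, 2 and 4 the same-numbered chaetocin library correlated best. Romidepsin replicate 3 correlated best with chaetocin replicate 4 (0.111). With a replicate block the calls numbered 10 for chaetocin, 0 for F5446 and 1 for romidepsin against DMSO, 144 for romidepsin against chaetocin, 11 for chaetocin against F5446 and 2 for romidepsin against F5446. The block gave -0.14 for C6orf226, 0.36 for ALG9, -0.08 for CHAF1A and -0.12 for SYNGR2 in romidepsin against chaetocin. Low counts limit C6orf226 and ALG9, and 2 DMSO libraries limit every comparison with vehicle.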
